A study of Mus musculus with 3 samples.

Results

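Calmodulins and neuronal calcium sensors are small proteins that bind calcium ions and then change the activity of other proteins. The set examined here held 9 genes of the 32531 counted: Calm2 and Calm3, which encode calmodulin; Nrgn and Pcp4, which encode small proteins that bind calmodulin; and the sensor genes Hpca, Hpcal4, Ncald, Vsnl1 and Ncs1. The rule names genes by function and uses no measured value, but the set was put together with earlier results of these data known, so its counts are a description. All 9 had a row in each library, and 8 passed the filter on low counts; Pcp4 did not.

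Adult, untreated mice of the Penk-TRAP NIDA186 line (strain C57BL/6J) gave 3 immunopurified libraries of ribosome-bound dentate gyrus RNA, all of 1 group (replicates 1 to 3). In this method, translating ribosome affinity purification, a ribosomal protein (Rpl10a) fused to green fluorescent protein (EGFP) is made in cells that use the control regions of Penk, which encodes proenkephalin, and ribosomes carrying it are pulled down with an antibody. The labels give no sex or exact age and do not say whether the replicates came from separate or pooled animals. The p-values therefore rest on the spread of these libraries, some of which may be technical. In the tests of level, the spread of each gene was estimated partly from that of all other tested genes. With no library of unbound or whole-tissue RNA used here, each gene was set against other genes of the same library, and carry-over from untagged cells cannot be told apart from RNA of the tagged ones. In tissue RNA of this kind, fewer cells of a type and less RNA per cell also cannot be told apart.

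The libraries held 5348761, 19195559 and 11059982 counts on genes in replicates 1 to 3. Replicate 1 stood apart by depth and by breadth, with 8795 genes at 10 or more counts against 14252 and 12019. From a list of 10 markers of dentate granule cells, the main neurons of this region, 5 could be tested. Of these, 3 lay above the median tested gene, among them the transcription factor gene Prox1 (log2 level 3.10, adjusted p = 0.00291, limma). The summed level of the 10 granule cell markers was 1761, 2011 and 1071 CPM in replicates 1 to 3. CPM is the count after scaling each library to the same size. The list was uneven: in replicate 1 Prox1, Stxbp6 and Rfx3 had 658, 520 and 400 CPM. Calb1, Tdo2, Lct and C1ql3 had 2, 1, 1 and 0 counts there. The median log2 level of the list was -0.71, 1.55 and 0.66 in replicates 1 to 3. Markers of other cell types were present as well. In replicates 1 to 3 the 7 oligodendrocyte markers summed to 553, 429 and 829 CPM, the 7 astrocyte markers to 164, 133 and 334 CPM, and the 10 markers of GABAergic neurons to 315, 257 and 362 CPM. Of the last, 4 could be tested and 1 lay above the median tested gene in level. This was Sst, the somatostatin gene, with 73.8, 125 and 83.3 CPM (adjusted p = 3.57e-05, limma). The median log2 level of the 10 GABAergic markers was -5.28, -3.04 and -2.52 in replicates 1 to 3. The 6 endothelial and mural markers summed to 393, 928 and 337 CPM, highest in replicate 2. In replicates 1 and 2 most of this came from the pericyte gene Rgs5 (370, 747 and 67.2 CPM in replicates 1 to 3). In replicate 3 most came from Flt1 (17.2, 89.8 and 227 CPM). Of 6 microglial markers, 5 were at 0 counts in replicate 1. Among markers of other hippocampal excitatory cells, the 5 of CA3 pyramidal cells summed to 366, 405 and 458 CPM in replicates 1 to 3. Spock1 (312, 173 and 281 CPM) and Cpne4 (43.1, 220 and 133 CPM) gave most of this. The 5 CA1 pyramidal markers summed to 62.7, 118 and 198 CPM, and the 5 mossy cell markers to 44.6, 47.8 and 21.1 CPM.

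When calcium enters a neuron, calmodulin binds it through its EF-hand loops and switches on kinases, the phosphatase calcineurin, adenylyl cyclases and calcium pumps. Neurogranin, the product of Nrgn, and the Pcp4 protein bind calmodulin through a short IQ motif. Neurogranin releases calmodulin as calcium rises, and it is known as an abundant protein of dendritic spines in forebrain excitatory neurons. The neuronal calcium sensors carry a fatty acid, myristate, on a glycine at their start, which in several of them is exposed by calcium and moves the protein to membranes.

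Levels by sample are given as CPM. Comparisons between genes use CPM per kb of exon, since a longer RNA yields more reads. A level against the median tested gene is the log2 CPM per kb of a gene minus that of the median gene in the same library, so that 1 stands for a doubling. Of the 8 tested genes, 6 lay above the median tested gene, in a test that asks for more than a log2 difference of 1 (limma TREAT, adjusted over 7924 genes). Over all tested genes, 9.76% lay above it by the same test. None of the 8 lay below it, where 3.74% of all tested genes were called. The median level of the 9 genes was 5.69, 4.98 and 4.16 in replicates 1 to 3, against 0 for all tested genes by construction.

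Calm2 and Calm3 encode the same protein: their coding sequences of 450 bases, stop included, differed at 78 bases in 76 codons, and 0 of these changed the translation. The longest identical coding run was 17 bases, so that at matching positions a longer stretch of coding sequence differs between the pair. The first 150 coding bases of each, from the reference transcripts, are shown with the bases that differ in capitals. Such differences let reads from coding sequence be assigned to either gene. Coding sequence made up 30.5% of the exon bases of Calm2 and 18.4% of those of Calm3.
Calm2: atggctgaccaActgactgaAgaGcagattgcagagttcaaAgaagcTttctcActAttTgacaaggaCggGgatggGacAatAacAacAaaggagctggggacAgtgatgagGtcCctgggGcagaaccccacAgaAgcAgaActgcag
Calm3: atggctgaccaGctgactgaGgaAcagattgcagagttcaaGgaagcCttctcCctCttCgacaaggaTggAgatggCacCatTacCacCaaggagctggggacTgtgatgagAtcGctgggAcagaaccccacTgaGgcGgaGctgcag
Within this stretch 23 bases differ. Calm2 lies on chromosome 17 (87433412 to 87446935, minus strand, GRCm38) and Calm3 on chromosome 7 (16915379 to 16924114, minus strand).

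Calm2 had the highest mean level per kb of the 9 genes, although it could not be ordered against Vsnl1. It was present at 1008, 4971 and 886 CPM in replicates 1 to 3, from 4277, 113865 and 10352 counts. Replicates 1 and 3 lay close together and replicate 2 far above them. Per kb of exon the mean was 1560 ± 1584 CPM (SD, n = 3), and the level against the median tested gene was 7.53 (SE 0.59, adjusted p = 2.53e-06, limma), above it in 3 of 3 libraries and rank 4 of 7924 tested genes. Of its 50-base windows, 9.72% also occur in 3 other annotated genes, so a part of its reads could fall to the class aligned to several places.

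Calm3 was present at 925, 489 and 329 CPM in replicates 1 to 3. Here replicate 1 was the highest, so the order of the libraries was not that of Calm2. The level against the median tested gene was 5.18 (SE 0.47, adjusted p = 1.14e-05, limma). Calm2 exceeded Calm3 per kb in all 3 libraries, by ratios of 1.80, 16.8 and 4.45. The mean log2 difference of 2.36 (SD 1.62, n = 3) was larger than its spread, although replicates 1 and 2 differed widely in the ratio. As a share of the reads on both genes, Calm2 took 52.2% in replicate 1 (95% Wilson interval 51.1 to 53.2), 91.0% in replicate 2 (90.9 to 91.2) and 72.9% in replicate 3 (72.2 to 73.6). These intervals cover counting error only, and none of them overlap.

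**Figure D1:**
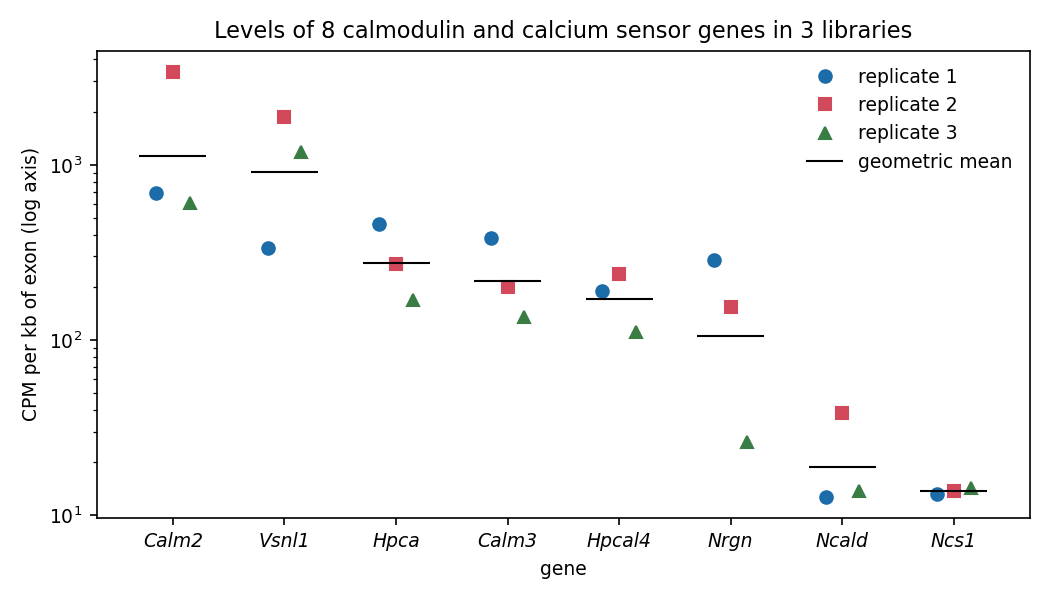
CPM per kb of exon (log axis) of the 8 tested genes in replicates 1 to 3 (points) with the geometric mean (bar), ordered by mean level. Calm2 and Vsnl1 lie highest, Ncald and Ncs1 lowest; the points of Ncs1 nearly coincide, and those of Nrgn spread by 10.9-fold.

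Nrgn and Pcp4 share the IQ motif, a run of codons for isoleucine, glutamine and spaced basic residues that contacts calmodulin, but little else: their translations were 19.6% identical. The coding stretches around the motif (capitals) are shown because this is the feature that puts both genes in the set, while their levels lay far apart.
Nrgn: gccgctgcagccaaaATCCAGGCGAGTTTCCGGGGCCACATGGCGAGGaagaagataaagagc
Pcp4: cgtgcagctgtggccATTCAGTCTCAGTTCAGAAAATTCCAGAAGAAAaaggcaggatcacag
The motif starts at codon 33 of 78 in Nrgn (chromosome 9, 37544492 to 37552904, minus strand) and at codon 46 of 62 in Pcp4 (chromosome 16, 96467606 to 96525793, plus strand). It was searched in the translations as isoleucine, leucine, valine or phenylalanine, then glutamine, with arginine or lysine at its 6th and 11th residues.

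Nrgn was present at 418, 223 and 38.2 CPM in replicates 1 to 3. Replicate 3 lay far below the others. The level against the median tested gene was 4.12 (SE 0.57, adjusted p = 0.000757, limma). By library it was 5.69, 4.59 and 2.09. The gene stood at the 99.4th, 98.9th and 86.7th percentile of tested genes in the 3 libraries. Without correction for length the level was 2.26 and its call ended (adjusted p = 0.0569, limma). Beside it, the 10 granule cell markers did not move as a group: 5 were lowest in replicate 3, among them C1ql2 (143, 64.7 and 8.81 CPM), and 5 were lowest in replicate 1, among them Dsp (27.1, 99.3 and 179 CPM). Their part in the level of Nrgn was not tested.

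Pcp4 had 1, 5 and 0 counts in replicates 1 to 3. These are 0.236, 0.218 and 0 CPM, with exact Poisson upper limits of 1.31, 0.509 and 0.316 CPM (95%, counting error only). The gene was therefore at or near 0 in each library, below the 2nd percentile of tested genes in all 3. In the reference annotation, 243 of the 641 bases of its longest transcript lie in exons of Igsf5 on the same strand, where a counter cannot choose between the genes. The rest of that transcript carries no such overlap, and Igsf5 itself had 0 counts in each library. In the hippocampus Pcp4 is known as a marker of CA2 pyramidal cells and of granule cells. Of 5 other CA2 markers, 3 were at 0 counts in replicate 1, and the list summed to 1.65, 32.4 and 13.7 CPM. The 10 granule cell markers summed to 1761, 2011 and 1071 CPM. The part of either cell type in the level of Pcp4 was not tested. The paralog Pcp4l1 had 1.65, 29.5 and 18.5 CPM.

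The 5 sensor genes encode proteins of 190 to 193 residues that fall into 2 close pairs and a more distant member. By translated coding sequence, Hpcal4 and Vsnl1 were 89.5% identical and Hpca and Ncald 88.1%, the other 8 pairs 56.0 to 67.7%, with Ncs1 at 58.0% or less against each other sensor. The first 60 coding bases are shown because all 5 open with the start and glycine codons (capitals) to which myristate is attached.
Hpca: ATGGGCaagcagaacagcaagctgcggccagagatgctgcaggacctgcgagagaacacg
Ncald: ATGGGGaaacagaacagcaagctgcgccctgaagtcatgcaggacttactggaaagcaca
Hpcal4: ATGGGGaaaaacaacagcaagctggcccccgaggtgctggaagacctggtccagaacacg
Vsnl1: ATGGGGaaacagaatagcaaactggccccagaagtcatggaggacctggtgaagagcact
Ncs1: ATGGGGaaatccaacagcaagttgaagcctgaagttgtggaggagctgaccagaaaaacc
Although related, the coding sequences shared no identical run longer than 46 bases (Hpca and Ncald), and 0 of the 50-base windows of Hpcal4, Vsnl1 and Ncs1 occurred in another annotated gene.

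Vsnl1 encodes visinin-like protein, a sensor made widely by forebrain neurons (chromosome 12, 11325242 to 11436613, minus strand). It was present at 657, 3684 and 2326 CPM in replicates 1 to 3. Replicate 1 lay well below the other libraries. Its level against the median tested gene was 7.23 (SE 0.56, adjusted p = 2.53e-06, limma), rank 7 of 7924. Calm2 and Vsnl1 could not be ordered, since Calm2 was higher in replicates 1 and 2 and Vsnl1 in replicate 3 (mean log2 difference 0.30, SD 1.11, n = 3).

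Hpca encodes hippocalcin, named for its abundance in the hippocampus (chromosome 4, 129111570 to 129122036, minus strand). It had 1349, 792 and 493 CPM in replicates 1 to 3 and a level of 5.52 (SE 0.47, adjusted p = 7.59e-06, limma). Its libraries lay in the same order as those of Calm3, and the ratio of Hpca to Calm3 per kb stayed at 1.21, 1.34 and 1.24 (mean log2 difference 0.34, SD 0.08, n = 3). This was the most even ratio of the 7 between neighbours in the order of the tested genes. The transcript length matters to its size: with the longest transcript in place of all exons the difference was 0.92.

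Hpcal4 encodes a close relative of visinin-like protein (chromosome 4, 123183227 to 123194701, plus strand). It had 1015, 1268 and 592 CPM in replicates 1 to 3, a spread of 2.14-fold, and a level of 4.82 (SE 0.45, adjusted p = 1.73e-05, limma). Vsnl1, its nearest relative in sequence, was higher per kb in each library, by ratios of 1.77, 7.93 and 10.7 (mean log2 difference 2.41, SD 1.39).

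Ncald encodes neurocalcin delta, the nearest relative of hippocalcin (chromosome 15, 37366175 to 37792570, minus strand). It had 110, 330 and 118 CPM in replicates 1 to 3, with replicate 2 high and the others close together. Its level of 1.65 (SE 0.51, adjusted p = 0.355, limma) did not pass the test. The call depends on the length used, because the union of its exons is 8581 bases and the longest transcript 3733. With the longest transcript the level was 2.39 (adjusted p = 0.0389, limma), and it passed also without replicate 1 (2.36, adjusted p = 0.00868, limma). Hpca exceeded Ncald per kb in each library, by ratios of 36.1, 7.06 and 12.3 (mean log2 difference 3.87, SD 1.20). Exons of Ncald share 286 bases with a gene on the same strand and 347 with one on the other, so reads there are uncertain.

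Ncs1 encodes neuronal calcium sensor 1, the most conserved member of the family (chromosome 2, 31245823 to 31295989, plus strand). It had 61.3, 64.0 and 67.0 CPM in replicates 1 to 3, from 260, 1466 and 783 counts. These values nearly coincided. Its level of 1.19 (SE 0.51, adjusted p = 0.715, limma) could not be told from a difference of 1 or less, and it was the lowest of the tested genes.

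**Figure D2:**
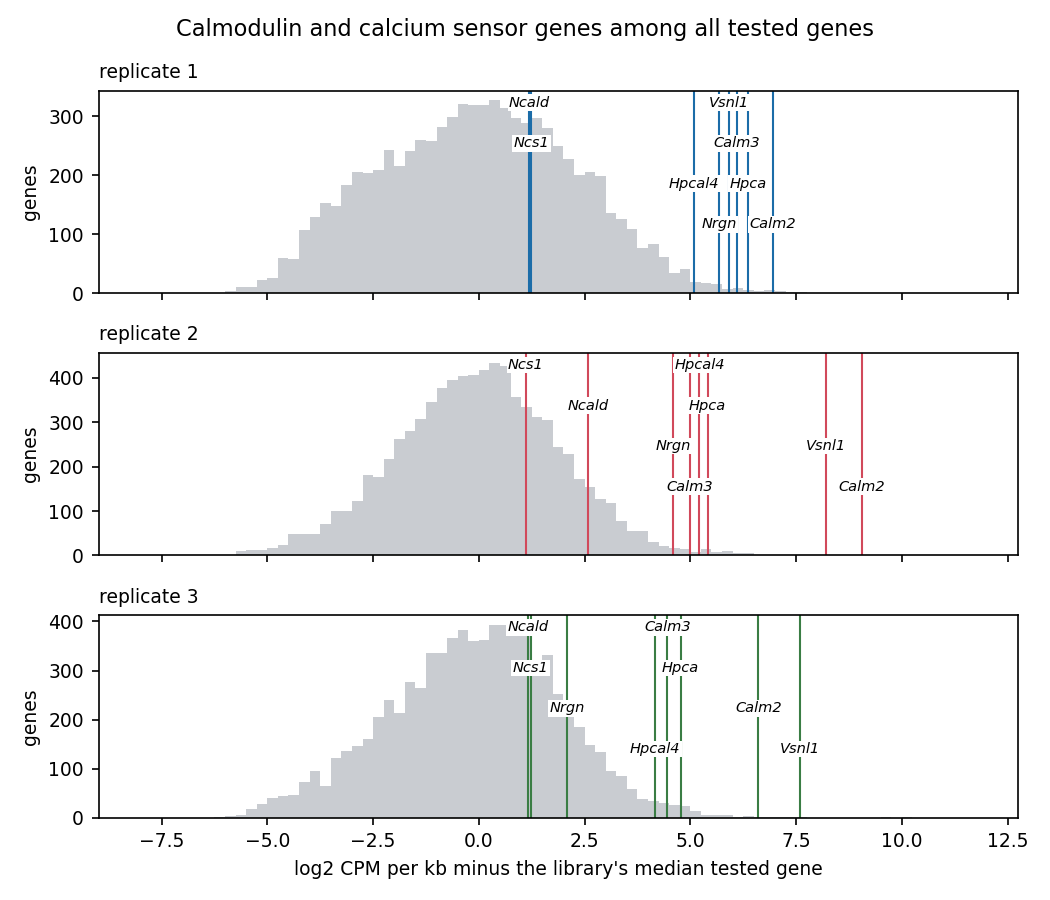
Number of tested genes (grey bars) by log2 CPM per kb minus the library's median tested gene, 1 panel for each library, with a line for each of the 8 tested genes. Of these, 6 lie at the right edge or beyond it in replicates 1 and 2, and Nrgn moves into the body of the distribution in replicate 3, at 2.09.

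Among the 8 tested genes, 21 of 28 pairs differed in level by more than their spread, that is with 1 sign in all 3 libraries and a mean log2 difference above its SD. Neighbours in the order mostly did not. Of the 7 neighbouring pairs, Hpca and Calm3 (0.34, SD 0.08) and Nrgn and Ncald (2.47, SD 1.82) met this rule. The other neighbours could not be ordered: Calm2 and Vsnl1, Vsnl1 and Hpca (1.72, SD 1.88), Calm3 and Hpcal4 (0.35, SD 0.62), Hpcal4 and Nrgn (0.70, SD 1.34), and Ncald and Ncs1 (0.46, SD 0.89). With 3 libraries, 0.25 is the smallest p an exact two-sided sign-flip test allows, so these differences carry no p-value. Without correction for length, the mean difference of Nrgn and Ncald was near 0 (-0.087).

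The make-up of the sensor RNA differed between the libraries. Per kb of exon, Hpca made up 45.5% of the 5 sensor genes in replicate 1 and 11.1 and 11.3% in replicates 2 and 3. Vsnl1 made up 33.1% in replicate 1 and 77.1 and 79.4% in the others, so that these libraries were alike and replicate 1 stood apart. Hpcal4 made up 18.7, 9.72 and 7.41%. Ncald and Ncs1 stayed at 1.57% or less in each library.

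**Figure D3:**
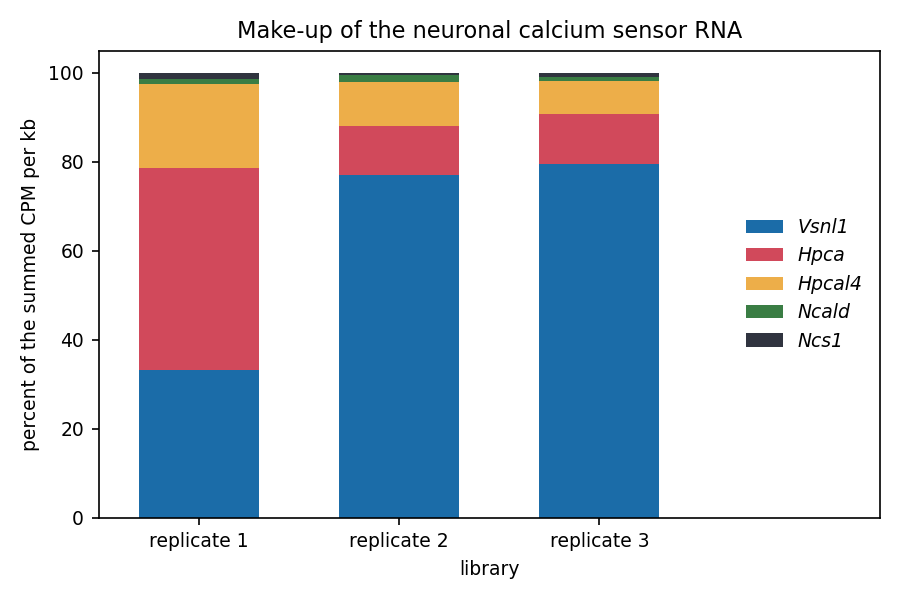
Percent of the summed CPM per kb of exon of Vsnl1, Hpca, Hpcal4, Ncald and Ncs1 in each library (stacked bars). Hpca is the largest part in replicate 1 at 45.5%, and Vsnl1 in replicates 2 and 3 at 77.1 and 79.4%.

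Counts of 7 of the 8 tested genes differed between libraries beyond counting error (Poisson chi-square test with Benjamini-Hochberg adjustment). Over all 8510 genes kept by the filter 97.4% did, so the 7 of 8 is near the background. The highest library exceeded the lowest by more than 2-fold in 7 of 8 genes, against 79.8% of all genes, and by more than 4-fold in 3 of 8, against 45.8%. The median spread was 2.91-fold for the 8 genes and 3.64-fold for all kept genes.

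Within the set the library that stood apart was not the same. Calm2 spread by 5.61-fold, and by 1.14-fold without replicate 2. Ncald spread by 3.01-fold, and by 1.08-fold without replicate 2. For these genes replicate 2 alone was high. Nrgn spread by 10.9-fold, and by 1.87-fold without replicate 3. Vsnl1 spread by 5.60-fold, and by 1.58-fold without replicate 1. Among all tested genes ranked by the ratio of replicate 2 to replicate 1, Vsnl1 stood at the 88.1th percentile, Calm2 at the 86.0th and Ncald at the 76.5th. Calm3 (27.3), Nrgn (27.8), Hpca (30.5), Ncs1 (47.6) and Hpcal4 (53.4) lay in the middle of that ranking or below it. The ratio also differed between length classes, not in 1 direction. Its median on the log2 scale was 0.29 for genes with up to 1 kb of exon and 0.65 for 1 to 2 kb. Calm2, Vsnl1 and Nrgn belong to the latter class and had 2.30, 2.49 and -0.90. Above 5 kb the median was -0.025, and Hpcal4 and Ncald of that class had 0.32 and 1.59. The part of length, depth or cell make-up in these spreads was not tested.

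Ncs1 was the exception in the set. Its spread of 1.09-fold was within counting error (adjusted p = 0.394, Poisson chi-square test), and 0.435% of all kept genes were more even. Among 3022 genes with a mean CPM within 2-fold of its own, 0.43% were more even, and their median spread was 3.45-fold. With DESeq2 size factors the spread was 1.08-fold, but on plain library totals, with 48.6, 76.4 and 70.8 CPM, it was 1.57-fold and beyond counting error (adjusted p = 1.34e-10). Its evenness therefore holds only relative to the bulk of genes, which itself lay higher in replicate 2 than in replicate 1 by 0.75 on the log2 scale on plain totals.

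**Figure D4:**
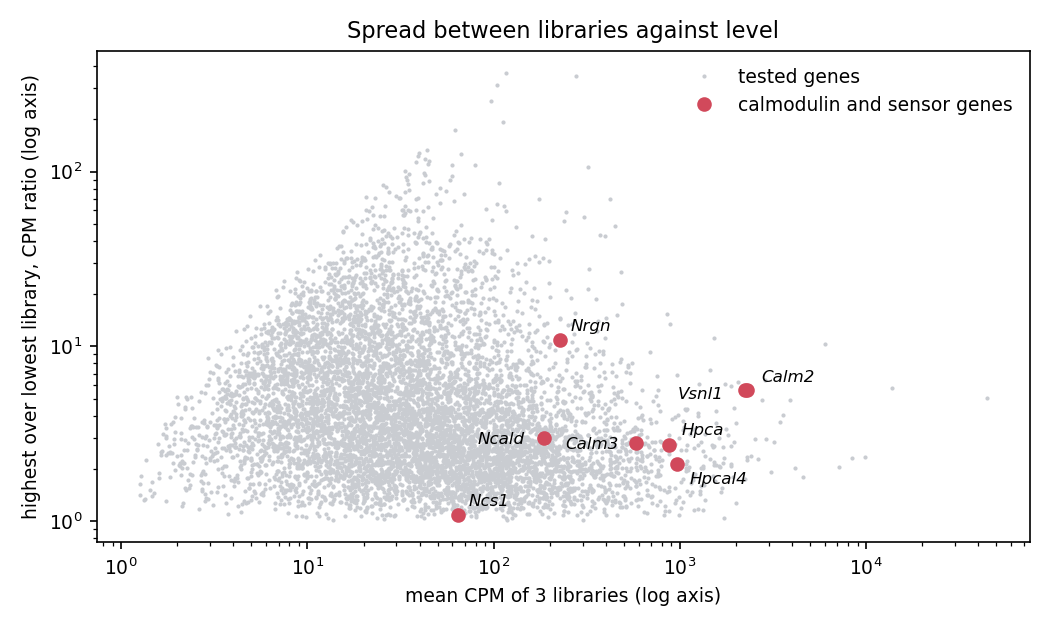
Ratio of the highest to the lowest library in CPM against mean CPM (both log axes) for the tested genes (grey) and the 8 genes of the set (red). Ncs1 lies at the lower edge at 1.09, and Nrgn highest of the set at 10.9; Calm2 and Vsnl1 lie together at 5.61 and 5.60.

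For each tested gene, the other tested genes nearest to it in level were sought by the largest absolute log2 difference over the 3 libraries. For Calm2 and Vsnl1 the nearest genes were each other (1.03) and Snap25, a protein of synaptic vesicle fusion (1.08 from Calm2 and 1.22 from Vsnl1). Hpca lay nearest to Arf3 (0.17) and Wipf3 (0.26), and Hpcal4 to Arf1 (0.16) and Chn1 (0.23); Arf1 and Arf3 are small GTPases of membrane traffic. Ncald lay nearest to Nptn (0.14) and Ensa (0.20), and Ncs1 to Slitrk2 and Tbl1xr1 (0.12 each). Calm3 lay nearest to Cmip (0.32) and Olfm1 (0.41). Nrgn had no close match, the nearest being Cfl1, which encodes the actin regulator cofilin (0.70), and Dazap2 (0.73).

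Of the other neuronal calcium sensors and the related KChIP proteins, which regulate A-type potassium channels, 3 of 8 could be tested and 1 lay above the median tested gene. This was Kcnip3 with 385, 172 and 38.9 CPM (level 2.68, adjusted p = 0.0374, limma). The list's count was 0 without replicate 2, after thinning to the smallest library or without length correction. It was 2 without replicate 1, with edgeR or with no log2 threshold, and 3 with no filter. The share of all tested genes above was 9.76% in the main setting. In the order named, it was 7.21, 9.01, 14.1, 14.6, 12.6, 20.7 and 17.8% in the others. The libraries of Kcnip3 lay in the same order as those of Nrgn, with replicate 3 lowest. Kcnip2 had 196, 76.7 and 76.2 CPM (level 2.32, adjusted p = 0.0551) and Kcnip4 73.8, 128 and 23.2 CPM (1.46, adjusted p = 0.525, limma). The retinal sensor gene Guca1a had 0 counts in each library. Hpcal1, a close relative of Hpca, had 0, 61 and 1 counts.

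Of the 6 CaBP sensor genes, a calmodulin-like family, 2 could be tested. Of these, 0 lay above and 1 below the median tested gene, where 9.76 and 3.74% of all tested genes did. The gene below was Cabp1, with 1.89, 2.93 and 2.14 CPM (level -3.86, adjusted p = 0.00445, limma). Caln1 was the highest at 1.15, 4.49 and 1.71 CPM per kb, Cabp7 had a mean of 0.620 ± 0.558 CPM per kb (SD, n = 3), and Cabp2 and Cabp5 had 0 counts in each library. Of 10 calcium buffer genes, 3 could be tested and 0 were called in either direction. With no filter 1 of the list lay above, where 17.8% of all tested genes did. Necab1 led the list with 73.6, 61.8 and 39.4 CPM, followed per kb by S100b and Necab2, and Ocm had 0 counts in each library.

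Of the other proteins that sequester calmodulin, 0 of 4 tested genes were called. Without replicate 1, with no log2 threshold or with no filter, 3 lay above the median tested gene. The share of all tested genes above it was 9.76% in the main setting and 14.6, 20.7 and 17.8% in these. Gap43, which shares the IQ motif with Nrgn, had 23.6, 54.7 and 57.5 CPM (level 2.20, adjusted p = 0.0731, limma). Marcks had 55.2, 194 and 79.6 CPM (level 1.96) and Marcksl1 17.4, 52.0 and 21.8 CPM (level 1.49). Pcp4l1 was the lowest of them (level 0.07). Per kb, Gap43 exceeded Nrgn in replicate 3 (37.8 against 26.3 CPM per kb), and in replicates 1 and 2 it did not.

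In the list of enzymes and other targets that calmodulin regulates, with some of their subunits, 34 of 38 genes could be tested. Of these, 15 lay above the median tested gene and 2 below, where 9.76 and 3.74% of all tested genes did. Camk2a, a kinase of excitatory synapses, led with 14313, 6155 and 9090 CPM (level 7.68, adjusted p = 2.21e-06, limma), as high per kb as Calm2 (7.53). The calcineurin subunit genes Ppp3r1 (level 5.47) and Ppp3ca (5.16) followed (adjusted p = 7.61e-06 and 7.9e-06, limma). Ppp3r1, itself an EF-hand protein, had 576, 1726 and 652 CPM, with replicate 2 high as for Calm2. Itpkb, an inositol phosphate kinase, had the lowest arithmetic mean per kb, at 6.37, 5.06 and 3.51 CPM (level -3.66, adjusted p = 0.00893, limma). The other gene below was Pde1c, a phosphodiesterase, with a lower level (-3.97, adjusted p = 0.0169, limma) but 0.211, 0.0783 and 3.06 CPM per kb, so that replicate 3 carried its mean. The list's median level was 1.52, 0.89 and 0.73 in replicates 1 to 3.

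Of the partners of the sensors and the enzymes that attach myristate, 9 of 10 had a row and 0 of 9 were called in either direction. Without replicate 1 or with no log2 threshold 1 lay above, without length correction 2, and with no filter 3. The share of all tested genes above was 14.6, 20.7, 14.1 and 17.8% in these settings, and 9.76% in the main one. The potassium channel genes Kcnd3 (level 1.55) and Kcnd2 (1.13), and their auxiliary subunit gene Dpp6 (1.19), were the highest per kb. The N-myristoyltransferase genes Nmt1 (level -0.41) and Nmt2 (0.59) lay near the median tested gene. Pi4kb, the lipid kinase that Ncs1 protein binds, had the lowest arithmetic mean per kb, at 2.12, 9.30 and 3.08 CPM (level -2.51, adjusted p = 0.167, limma). The level of Dpp10, an auxiliary subunit gene of these channels, was -2.60 (adjusted p = 0.177, limma).

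**Figure D5:**
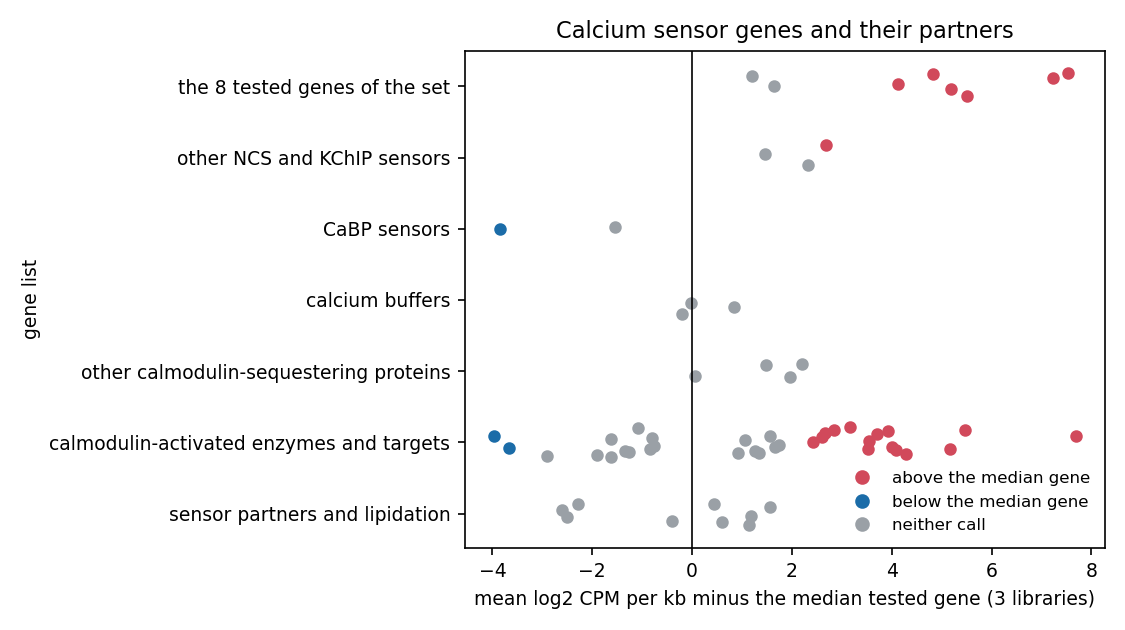
Mean log2 CPM per kb minus the median tested gene over 3 libraries for each tested gene of the set and of 6 related lists (points; red above, blue below, grey neither call, limma TREAT). Of the 8 tested genes of the set 6 lie above, and of the 34 tested genes in the list of calmodulin targets 15. The other lists hold 1 such call among 21 tested genes, and 9.76% of all tested genes lie above.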

How the data were processed

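The authors deposited whole-number read counts per gene symbol, 1 library per file, not normalised or pooled. Per the submitters' processing notes they used STAR 2.0.0e, HTSeq and mm10; their annotation, strand setting and filters are not given in the sources used here. Summary rows were left out: 50.7, 35.4 and 40.5% of listed reads had no gene feature in replicates 1 to 3, and 32.2, 24.8 and 37.5% aligned to several places.

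From the counts, TMM factors (0.793, 1.19 and 1.06), CPM and log2 CPM (prior count 2) came from edgeR 4.0.16 under R 4.3.3. filterByExpr with 1 group kept 8510 genes, of which 7924 (93.1%) had an exon length in GENCODE vM21 (GRCm38, the union of all exons). Levels minus the library's median gene went into limma 3.58.1 (TREAT against a log2 difference of 1, with trend; Benjamini-Hochberg adjusted p under 0.05 is a call). The SE from this fit pools the variance of each gene with the trend over all tested genes. The SE of Nrgn and Ncs1 were thus alike (0.57 and 0.51), although the SD of their log2 CPM per kb was 1.79 and 0.064. Counts were also simulated for 7924 genes. Of genes set at a log2 level of 2, 65.7% were called, and of those set at 3, 100%. Of genes set at the median, 0% were called. Whether these shares hold at the spread of the real libraries, with a median of 3.64-fold over all kept genes, was not tested. Sequences came from GENCODE vM21 transcripts, compared with Biopython 1.88. A count of 0 allows up to 3 counts, or 0.707, 0.131 and 0.257 CPM. PCR copies are not independent molecules.

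The genes of the set and the lists were chosen with earlier results of these data known. Named were all 9 genes, the 3 highest per kb and the lowest of each list, list genes at 0 counts throughout, and the 2 genes nearest in level; Hpcal1, Pde1c, Dpp10, Nmt1, Nmt2, Igsf5 and the cell type markers were named beyond this rule after their values were seen. Alternatives were DESeq2 1.42.0 size factors, plain totals, no filter, other prior count, lengths and tests, thinning, and each replicate left out.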

Additional observations from a re-analysis of the deposited data

How the results depend on the processing

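The number of set genes above the median tested gene was 6, from 6 to 8 over all alternatives; Ncald joined with the longest transcript, without replicate 1 and with no log2 threshold, and Ncald and Ncs1 with no filter, which lowers the median gene and calls 17.8% of all genes. Leaving out single replicates gave 6 to 7. Without length correction Nrgn left the count (2.26, adjusted p = 0.0569, limma) and Ncald entered it (2.35, adjusted p = 0.0214, limma). List genes above it numbered 16, and 32 with no filter, and 11 to 21 without single replicates. The share of all tested genes above it was 9.76%, and 17.8% with no filter. Without replicates 1, 2 and 3 in turn it was 14.6, 7.21 and 7.27%, and with no log2 threshold 20.7%. With the count test of edgeR, 6 set genes and 17 list genes lay above. The tool's own threshold test takes no design with an intercept alone, so a quasi-likelihood F test against the nearer threshold was used. Neighbouring pairs beyond their spread, counted with Pcp4, numbered 3, and 4 to 5 without single replicates (5 without replicate 1). Nrgn minus Ncald turned from 2.47 to -0.087 without length correction. Genes of the set that varied beyond counting error numbered 7, and 8 on plain library totals. No paired analysis was possible because there is only 1 group. Replicate 1, with 5348761 counts, limits what can be read for low genes such as Pcp4.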
